A study of Mus musculus with 9 samples.

Results

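Small nucleolar RNAs (snoRNAs) and the long noncoding genes that host some of them were followed in 9 libraries of undifferentiated mouse J1 embryonic stem cells (ESCs), in 3 groups of 3. The members were the genes of the deposited table whose symbols begin with Snord or Snora and a digit, those named Snhg with a number, and Gas5. They numbered 126 of the 44788 genes in the table: 76 C/D box snoRNAs (Snord), 38 H/ACA box snoRNAs (Snora) and 12 host genes (Gas5 and the Snhg genes numbered 1 and 3 to 12 in the table). The table itself typed all 114 Snord and Snora members as snoRNA. Foxj3-ES and Zbtb18-ES were J1 lines that stably carried the full-length coding sequence of Foxj3 or of Zbtb18, delivered by a pCDH-Puro lentivirus. Control ESCs were labelled as wild type J1 and carried no transgene by that label. All 3 groups were grown without feeder cells on matrigel with LIF, and whether each line was 1 clone or a pool was not stated. The comparisons asked how the RNA of ESCs that carry either transcription factor differs from that of control ESCs.

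snoRNAs are short nuclear RNAs that guide the chemical modification of other RNAs, chiefly ribosomal RNA. C/D box snoRNAs carry the C box and D box motifs, bind fibrillarin, Nop56, Nop58 and Nhp2l1 (the 15.5K protein), and direct ribose methylation. H/ACA box snoRNAs end in an ACA box, bind dyskerin (Dkc1), Gar1, Nhp2 and Nop10, and direct pseudouridylation. In mammals most are cut from the introns of longer host transcripts, many of them ribosomal protein mRNAs. The Snhg genes and Gas5 are hosts whose spliced RNA is mostly without a coding role, and several of these spliced RNAs are removed by nonsense-mediated decay. Many snoRNA hosts begin with a pyrimidine tract at the transcription start, the 5′ terminal oligopyrimidine feature of the translation machinery genes. ESCs divide fast and make many ribosomes.

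Values were UQRPKM, that is RPKM (reads per kilobase of transcript and per unit of library depth) after upper-quartile scaling of every library, so levels of different genes are given per length. Differences are on the scale of log2(UQRPKM + 1) from limma, which understates changes of low genes, and a gene was called at an adjusted p under 0.05 over the 22268 genes tested. The sources used here do not say whether libraries of 1 group were separate cultures, and p-values therefore measure the spread between these samples alone. All 10 ESC markers of the list were present in all 9 libraries, with a sum, much of it from Pou5f1 and Dppa5a, of 44182 to 47636 UQRPKM in Foxj3-ES, 48797 to 64629 in Zbtb18-ES and 40763 to 43978 in control ESCs. Single markers went the other way: Klf4 was 209 to 252 UQRPKM in Foxj3-ES, 266 to 349 in Zbtb18-ES and 860 to 940 in control ESCs, and Nanog 683 to 1005, 1062 to 1345 and 1965 to 2591 in the same order. In all, 4 of the 10 fell and none rose in Foxj3-ES, and 3 fell and 1 rose in Zbtb18-ES. The sum over 6 primitive endoderm markers was 14.4 to 21.1 UQRPKM in Foxj3-ES, 13.0 to 20.2 in Zbtb18-ES and 25.6 to 27.3 in control ESCs, and that over 3 mesoderm markers 0.655 to 2.35, 1.49 to 4.31 and 6.84 to 8.203 in the same order, so both lay lower in the lines than in control. The sum over 6 fibroblast markers, mostly Vim, was 920 to 1521 UQRPKM in Foxj3-ES, 710 to 1584 in Zbtb18-ES and 1074 to 1138 in control ESCs, with Lum listed at 0 in all 9 libraries. The sum over 6 trophectoderm markers was 676 to 749 UQRPKM in Foxj3-ES, 534 to 702 in Zbtb18-ES and 391 to 589 in control ESCs, and that over 5 neural markers 375 to 425, 172 to 306 and 451 to 738 in the same order. The part of these lists in the results was not tested. Foxj3 itself averaged 155 ± 31.1 UQRPKM in Foxj3-ES and 128 ± 15.6 in control ESCs (SD, n = 3 each), a log2 difference of 0.26 that was not called (adjusted p = 0.388). Zbtb18 averaged 73.6 ± 49.3 UQRPKM in Zbtb18-ES and 53.6 ± 10.3 in control ESCs, again not called (log2 difference 0.26, adjusted p = 0.715), so neither line showed a called rise of the gene it carried. Replicate 2 was the library most often lowest for the members in each group. It was the lowest of its 3 libraries for 28, 33 and 52 of the 70 tested Snord genes in Foxj3-ES, Zbtb18-ES and control ESCs, for 20, 17 and 25 of the 36 Snora genes and for 8, 8 and 9 of the 12 host genes.

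The sequences of the 13 snoRNAs that were called in at least 1 comparison are shown here, because the results turn on them and because their boxes are what divides them into the 2 classes. They are taken from GENCODE M21 on GRCm38 (mm10), 5′ to 3′ and in DNA letters. In the C/D box snoRNAs the capitals mark TGATGA (the core of the C box, starting within the first 15 bases) and CTGA (the D box, starting within the last 14 bases).
Snord73a (chr3:86138791-86138858, minus strand): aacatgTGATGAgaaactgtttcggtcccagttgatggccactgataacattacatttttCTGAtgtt
Snord89 (chr1:39548745-39548854, minus strand): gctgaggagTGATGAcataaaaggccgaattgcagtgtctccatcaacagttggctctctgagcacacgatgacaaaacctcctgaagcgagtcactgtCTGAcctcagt
Snord42b (chr11:78183056-78183124, minus strand): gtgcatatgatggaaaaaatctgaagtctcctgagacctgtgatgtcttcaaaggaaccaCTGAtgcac
Snord4a (chr11:78181686-78181756, minus strand): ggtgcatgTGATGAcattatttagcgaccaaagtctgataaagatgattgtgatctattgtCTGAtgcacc
Snord49b (chr11:62603079-62603150, plus strand): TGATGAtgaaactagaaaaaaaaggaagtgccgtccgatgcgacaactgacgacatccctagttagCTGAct

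In the H/ACA box snoRNAs the capitals mark ACA where it starts within the last 10 bases.
Snora31 (chr14:75847905-75848034, plus strand): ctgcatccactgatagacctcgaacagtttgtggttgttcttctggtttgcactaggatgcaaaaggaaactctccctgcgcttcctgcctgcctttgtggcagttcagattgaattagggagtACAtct
Snora65 (chr2:32963291-32963420, plus strand): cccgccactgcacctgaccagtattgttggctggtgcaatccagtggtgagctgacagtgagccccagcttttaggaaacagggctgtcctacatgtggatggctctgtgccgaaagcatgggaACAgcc
Snora3 (chr7:109520120-109520251, plus strand): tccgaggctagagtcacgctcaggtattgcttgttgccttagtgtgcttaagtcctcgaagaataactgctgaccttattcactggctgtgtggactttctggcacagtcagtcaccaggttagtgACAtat
Snora52 (chr7:141448803-141448939, plus strand): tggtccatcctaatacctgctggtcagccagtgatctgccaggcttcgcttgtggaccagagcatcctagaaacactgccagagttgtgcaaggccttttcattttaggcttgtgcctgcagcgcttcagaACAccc
Snora7a (chr6:115807975-115808114, minus strand): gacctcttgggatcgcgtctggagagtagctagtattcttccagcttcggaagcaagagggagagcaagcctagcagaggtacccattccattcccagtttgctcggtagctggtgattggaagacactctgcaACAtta
Snora17 (chr2:26639190-26639321, minus strand): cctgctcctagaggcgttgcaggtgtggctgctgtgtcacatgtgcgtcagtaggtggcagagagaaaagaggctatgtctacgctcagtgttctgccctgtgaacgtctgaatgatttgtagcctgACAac
Snora28 (chr12:111540941-111541067, plus strand): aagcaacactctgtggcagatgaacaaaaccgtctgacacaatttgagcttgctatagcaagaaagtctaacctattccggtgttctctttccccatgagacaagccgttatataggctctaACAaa
Snora78 (chr17:24719676-24719803, minus strand): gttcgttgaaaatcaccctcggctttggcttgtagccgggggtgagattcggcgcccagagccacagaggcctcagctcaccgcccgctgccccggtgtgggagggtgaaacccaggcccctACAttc

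Searched on the strand of the RNA alone, ACA was found at that place in 35 of 37 Snora sequences. TGATGA was found in 47 of 74 Snord sequences, CTGA in 67 and both in 45, and Snord42b is an example without TGATGA. The Snord sequences had a median of 81 bases (64 to 238) and 45.5% GC, and the Snora sequences a median of 132 bases (121 to 205) and 47.7% GC. None of the 13 was more than 69.4% identical to another member of its class, counted by edit distance over the longer sequence. Close copies occurred elsewhere: Snora73a and Snora73b were 96.6% identical, Snord14c and Snord14d 97.7%, Snord1b and Snord1c 97.4%, Snord88a and Snord88c 94.4%, and Snord116l1 and Snord116l2 identical, so reads could be split between the members of each pair. Of the 113 snoRNAs with a strand in the annotation, 108 lay inside the body of another gene on the same strand and 5 did not. For 32 that gene coded for a ribosomal protein. The 5 include Snora17 and Snora43, which lie in the RefSeq span of Snhg7, a gene without a match in GENCODE M21. In 56 cases bases of the snoRNA also lay in an exon of another annotated gene, 48 of them with all their bases, and reads from such a snoRNA and from that exon cannot be told apart. For the 13 called snoRNAs this held for all bases of Snora65, Snora3, Snora52, Snora7a and Snora28 and for 34.5% of Snord42b. The exons belong to transcripts typed as retained intron, except for Snora7a, where the transcript is typed as protein coding. It held for none of the bases of Snord73a, Snord89, Snord4a, Snord49b, Snora31, Snora17 and Snora78. For Snora17 the exons of Snhg7 were not covered, because the annotation has no match for Snhg7.

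The C/D box snoRNAs summed to 48962, 30600.0 and 34499 UQRPKM in Foxj3-ES, to 39819, 27928 and 38348 in Zbtb18-ES and to 35651, 14472 and 32707 in control ESCs. The groups overlapped, and replicate 2 was the lowest library of each. The H/ACA box snoRNAs summed to 17807, 9865 and 13859 UQRPKM in Foxj3-ES, to 13402, 8845 and 12244 in Zbtb18-ES and to 11156, 7931 and 9707 in control ESCs, which also overlapped. The 12 host genes summed to 16502, 8985 and 13104 UQRPKM in Foxj3-ES, to 11409, 6845 and 10421 in Zbtb18-ES and to 7015, 6165 and 7177 in control ESCs, so that every Foxj3-ES library lay above every control library. As a share of the summed UQRPKM of all genes this separation was lost: host genes took 0.196%, 0.111% and 0.159% in Foxj3-ES cells, 0.153%, 0.0959% and 0.148% in Zbtb18-ES cells and 0.113%, 0.0897% and 0.113% in control ESCs. The share of snoRNAs averaged 0.627% in Foxj3-ES, 0.649% in Zbtb18-ES and 0.582% in control ESCs. Without control replicate 2, at 0.326%, the control mean was 0.71%, above both lines, and the groups overlapped. In such bulk RNA, fewer cells with an RNA and less of it in each cell cannot be told apart.

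**Figure D1:**
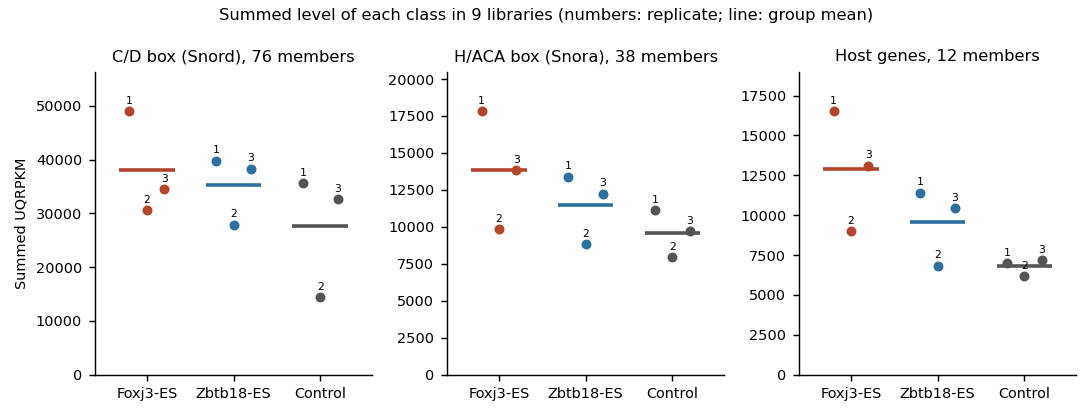
Summed UQRPKM of the 76 C/D box snoRNAs, the 38 H/ACA box snoRNAs and the 12 host genes in each of 9 libraries, with the replicate number above each point and a line at the group mean. Control replicate 2 is the lowest library for C/D box snoRNAs (14472), and the 3 Foxj3-ES libraries (8985 to 16502) lie above the 3 control libraries (6165 to 7177) for host genes, a separation that is lost as a share of the library sum.

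The depth behind single snoRNAs was low. Their values came in whole steps. In Foxj3-ES 1 read in 100 bases was worth 5.43 to 6.67 UQRPKM. In Zbtb18-ES it was worth 4.27 to 5.56 UQRPKM and in control ESCs 4.31 to 4.89. Each Foxj3-ES library thus held fewer reads for the same UQRPKM than each control library, a limit for its values at 0. On RefSeq lengths 96.28% of the 887 snoRNA values above 0 were whole reads within a tolerance of 0.02 read, so reads were estimated in this unit. For some snoRNAs, among them Snord4a, Snord89, Snora28 and Snora15, the estimates were even numbers in all 9 libraries. Their true step may be larger, which a check for whole reads cannot detect, so their estimated reads may be too high. By these estimates the C/D box snoRNAs held 2333 to 5926 reads per library and the H/ACA box snoRNAs 2068 to 3472. The estimated median was 20 reads per gene and library for Snord and 25 for Snora, and 34.9% and 34.5% of the values rested on fewer than 10 estimated reads. True depth may be lower.

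Among C/D box snoRNAs the highest mean level over the 9 libraries was that of Snord49a (4969 UQRPKM), one of 3 snoRNAs within the noncoding gene 2410006H16Rik. Snord49a had 8527, 4519 and 3743 UQRPKM in Foxj3-ES cells, 6728, 3453 and 5388 in Zbtb18-ES cells and 5683, 1120.2 and 5563 in control ESCs. The next were Snord32a (mean 2878), within the ribosomal protein gene Rpl13a, and Snord99 (mean 2151), in the host gene Snhg12. Snord32a had 4419.8, 2153 and 5448 UQRPKM in Foxj3-ES cells, 2535, 1999.6 and 4774 in Zbtb18-ES cells and 2059.5, 761 and 1751 in control ESCs, with each Foxj3-ES library above each control library and no call (adjusted p = 0.0648). Snord99 had 4917, 1807 and 1979.8 UQRPKM in Foxj3-ES cells, 2329, 1679 and 2748 in Zbtb18-ES cells and 1477, 926 and 1493 in control ESCs, and again the Foxj3-ES libraries lay above the controls without a call (adjusted p = 0.0847). In all 3 genes control replicate 2 was the lowest of the 9 libraries.

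Among H/ACA box snoRNAs Snora65 was highest (mean 2770 UQRPKM), followed by Snora61 (1799) in Snhg12 and Snora81 (1104) in Eif4a2, which codes for a translation initiation helicase. Snora61 had 4548, 1094 and 1560.3 UQRPKM in Foxj3-ES cells, 1738, 1323 and 2375 in Zbtb18-ES cells and 1756, 876 and 918 in control ESCs. Snora81 had 1341, 976 and 1524 UQRPKM in Foxj3-ES cells, 1267, 771 and 1538 in Zbtb18-ES cells and 809, 960.3 and 746 in control ESCs. Neither was called in any comparison, and Foxj3-ES replicate 1 was by far the highest library of Snora61.

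At the other end, 8 members were not tested because fewer than 3 libraries reached a UQRPKM of 1. They were the C/D box snoRNAs Snord61, Snord90, Snord116, Snord116l1, Snord116l2 and Snord123 and the H/ACA box snoRNAs Snora35 and Snora36b. Snord90 and Snora35 were listed at 0 in all 9 libraries. Snora35 lies in the serotonin receptor gene Htr2c, and the Snord116 copies lie in the imprinted Prader-Willi region, both known for expression in brain. Each of the 3 Snord116 entries was above 0 in 1 library, at 1.23 UQRPKM in Zbtb18-ES replicate 3 for Snord116 and Snord116l1 and at 2.42 in Foxj3-ES replicate 3 for Snord116l2. The other 118 members were tested: 70 Snord, 36 Snora and all 12 host genes. Of all members, 52 Snord, 28 Snora and 11 host genes were above 0 in every library.

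Of the 12 host genes, 2 rose in Foxj3-ES (Gas5 and Snhg1) and none fell, and 1 rose in Zbtb18-ES (Snhg11). Across all genes tested, 7.54% were called higher and 7.01% lower in Foxj3-ES than in control ESCs. For Zbtb18-ES these shares were 5.31% and 6.5%. At an unadjusted p under 0.05 there were 6 host genes for Foxj3-ES and 4 for Zbtb18-ES. The share of all genes at that unadjusted cut is not given here. Counts at it, also those of the other classes and lists below, therefore cannot show whether there is an excess over all genes. The median log2 difference of the host genes was 0.48 for Foxj3-ES, where that of all genes was -0.035, and 0.41 for Zbtb18-ES, where it was -0.023. It stayed above 0 under each other scaling, at 0.17 and 0.26 when libraries were set to the same sum over all genes, which put the median of all genes at -0.348 and -0.165. That scaling left no host gene called higher in Foxj3-ES and 1 called lower (Snhg3), and without control replicate 2 the host gene medians were 0.25 and 0.18, with 1 host gene called higher in each line. The Zbtb18-ES median was 0.121 without Zbtb18-ES replicate 1, and over all libraries left out the medians ran from 0.246 to 0.69 and from 0.121 to 0.563. The count of 2 in Foxj3-ES was also 0 when Foxj3-ES replicate 1 was left out, 1 when control replicate 1, control replicate 3 or Foxj3-ES replicate 3 was left out, and 4 (3 higher and 1 lower) without Zbtb18-ES replicate 1, which took the count in Zbtb18-ES to 2 (1 higher and 1 lower).

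Gas5 was first found as a transcript that accumulates on growth arrest, and it hosts several C/D box snoRNAs. It had 2674, 1522 and 1838 UQRPKM in Foxj3-ES cells, 1816, 1183 and 1676 in Zbtb18-ES cells and 1049, 912 and 1014 in control ESCs, and all libraries of both lines lay above all controls. The rise in Foxj3-ES was called (log2 difference 0.98 ± 0.22 SE, adjusted p = 0.0171), and in Zbtb18-ES it was not (log2 difference 0.63 ± 0.22 SE, adjusted p = 0.0934). The Foxj3-ES call was lost without Foxj3-ES replicate 1 (adjusted p = 0.0525), with the same sum over all genes (0.0567), with quantile normalization (0.0572) and where a fold of at least 2 was also asked. Snhg1, the host of Snord22 and other C/D box snoRNAs, was the most abundant of the 12. It had 7210.1, 3005 and 6289 UQRPKM in Foxj3-ES cells, 3964, 2236 and 4749 in Zbtb18-ES cells and 2179, 1999.6 and 2102 in control ESCs, again with no overlap between either line and control. It rose in Foxj3-ES (log2 difference 1.30 ± 0.34 SE, adjusted p = 0.0309) and was not called in Zbtb18-ES (log2 difference 0.73 ± 0.34 SE, adjusted p = 0.191). The Foxj3-ES call was lost without Foxj3-ES replicate 1 (adjusted p = 0.106) or 3 (0.0904) and without control replicate 1 (0.0729), 2 (0.0699) or 3 (0.0796), and it held under 9 of 13 other settings.

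Snhg6 and Snhg12 had the same order of group means without passing the test. Snhg6, the host of Snord87, had 2921, 1486 and 1375 UQRPKM in Foxj3-ES cells, 1873, 894 and 902 in Zbtb18-ES cells and 830.1, 613 and 1088 in control ESCs. Its Foxj3-ES libraries did not overlap the controls (log2 difference 1.14 ± 0.36 SE, adjusted p = 0.0586), and the difference passed the threshold with the stricter filter (adjusted p = 0.0442) and without Zbtb18-ES replicate 1 (0.0361). Snhg12, the host of Snord99, Snora61, Snora44 and Snora16a, had 1479.6, 887 and 1085 UQRPKM in Foxj3-ES cells, 989, 653 and 905 in Zbtb18-ES cells and 790.1, 577 and 786 in control ESCs. Its Foxj3-ES libraries also lay above the controls (log2 difference 0.66 ± 0.22 SE, adjusted p = 0.075), while its Zbtb18-ES libraries overlapped them (log2 difference 0.23 ± 0.22 SE, adjusted p = 0.546).

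Snhg11, a host gene best known from the nervous system and typed as protein coding in GENCODE M21, was the host gene that rose in Zbtb18-ES. It had 229.9, 156 and 208 UQRPKM in Foxj3-ES cells, 282, 294 and 305 in Zbtb18-ES cells and 167, 93.4 and 149 in control ESCs. All 3 Zbtb18-ES libraries lay above all 6 others, and the rise over control was called (log2 difference 1.14 ± 0.22 SE, adjusted p = 0.0127) and held with each library left out (adjusted p 0.0147 to 0.0461) and under all 13 other settings. In Foxj3-ES Snhg11 overlapped the controls (log2 difference 0.56 ± 0.22 SE, adjusted p = 0.124), and the difference between the lines was not called (log2 difference 0.58 ± 0.22 SE, adjusted p = 0.238). Snhg7, whose RefSeq span holds Snora17 and Snora43, had 348, 477 and 556 UQRPKM in Foxj3-ES cells, 522, 433 and 567 in Zbtb18-ES cells and 332, 394 and 294 in control ESCs. Its Zbtb18-ES libraries lay above the controls without a call (log2 difference 0.58 ± 0.19 SE, adjusted p = 0.0814).

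Snhg3 was a host gene whose libraries lay below control in both lines. It hosts Snora73a and Snora73b, the copies of U17, which is needed for the cleavage of the ribosomal RNA precursor in place of a modification. Snhg3 had 349, 323 and 359 UQRPKM in Foxj3-ES cells, 461, 323 and 300.03 in Zbtb18-ES cells and 480.1, 514 and 494 in control ESCs. The libraries of both lines lay below all controls, and neither difference was called (log2 difference -0.53 ± 0.16 SE, adjusted p = 0.0547 in Foxj3-ES and log2 difference -0.48 ± 0.16 SE, adjusted p = 0.0828 in Zbtb18-ES). In Foxj3-ES it passed the threshold with the same sum over all genes (adjusted p = 0.00309). It also passed in 6 of the 12 other settings besides single libraries left out, 1 of them with only the 2 compared groups in the fit. Without Zbtb18-ES replicate 1 it passed as well (0.0205).

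The remaining host genes overlapped between the groups. Snhg5 had 771, 641 and 771 UQRPKM in Foxj3-ES cells, 818, 418 and 499 in Zbtb18-ES cells and 626, 577 and 651 in control ESCs. Snhg4 had 328, 264 and 406 UQRPKM in Foxj3-ES cells, 409, 258 and 363 in Zbtb18-ES cells and 376, 318 and 381 in control ESCs. Snhg8, the host of Snora24, had 132, 182 and 150.2 UQRPKM in Foxj3-ES cells, 174, 113 and 64.4 in Zbtb18-ES cells and 142, 153 and 152 in control ESCs. No call was made for these 3, with adjusted p of 0.359 or more against control. Snhg10 had 45.4, 42.8 and 37.0 UQRPKM in Foxj3-ES cells, 69.4, 32.3 and 90.3 in Zbtb18-ES cells and 33.6, 14.8 and 52.1 in control ESCs. Snhg9, the host of Snora78, was the lowest host gene and was listed at 0 in 1 library of each group, with 14.6, 0 and 29.7 UQRPKM in Foxj3-ES cells, 31.7, 9.34 and 0 in Zbtb18-ES cells and 10.2, 0 and 14.1 in control ESCs. Both were also uncalled (adjusted p of 0.204 or more), and the interval of Snhg9 in Foxj3-ES ran from -2.98 to 3.97 on the log2 scale, which left a large change in either direction possible.

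**Figure D2:**
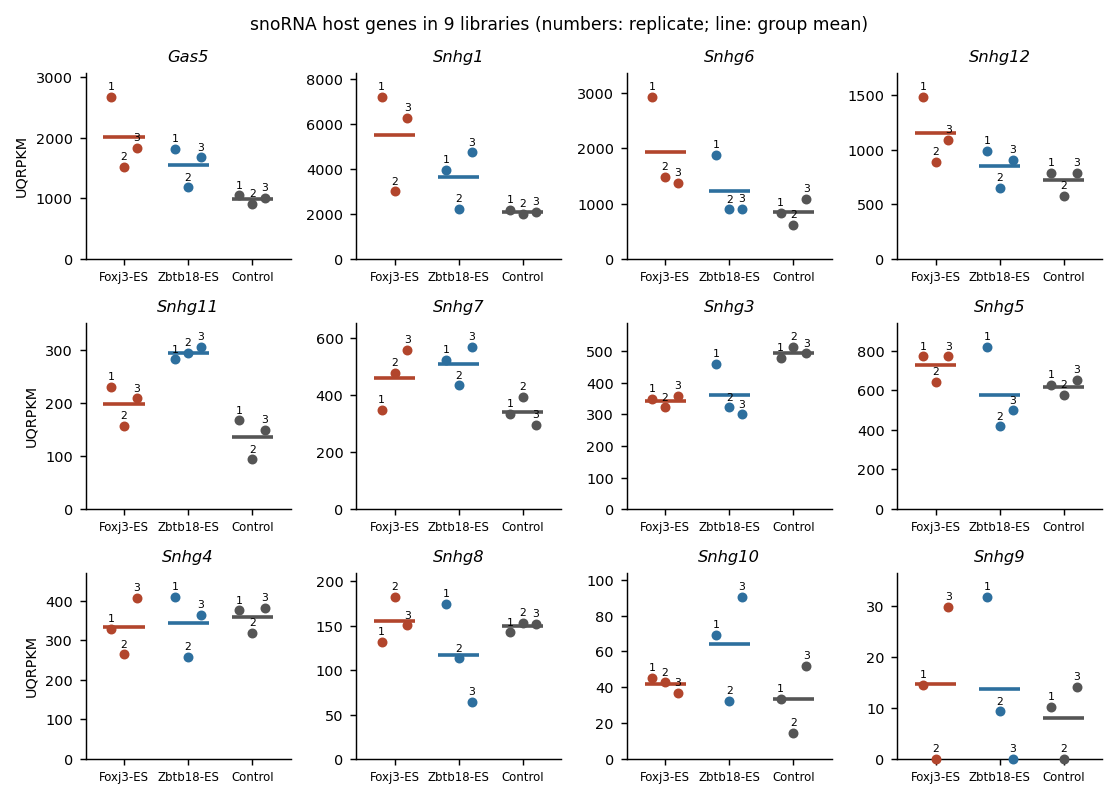
UQRPKM of the 12 host genes in each of 9 libraries, each panel on its own axis from 0, with the replicate number at each point and a line at the group mean. For Gas5 and Snhg1 all libraries of Foxj3-ES and Zbtb18-ES lie above all control libraries, for Snhg11 the Zbtb18-ES libraries (282 to 305) lie above all others, and for Snhg3 both lines lie below control.

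The start sites of host genes were looked at because terminal pyrimidine tracts are a known feature of such hosts. RefSeq start windows (GRCm38.p6) were found for 10 of the 12 host genes, and CTTTC was searched on the transcribed strand from 5 bases before to 15 bases after the start. It was found in 2 of 11 windows (Snhg12 and 1 of 2 starts of Gas5), against 2.34% of 32851 windows of all genes. CTTTC is a single string and misses other pyrimidine tracts: from the start base Snhg8 reads CTCTTT and Snhg7 reads CTCTC. The search therefore does not show which hosts lack such a tract. The 3 windows below run from 20 bases before to 30 bases after the start, with CTTTC in capitals where it was found. Snhg1 is shown as a host that rose without CTTTC.
Gas5 (chr1:161035146-161035195, plus strand): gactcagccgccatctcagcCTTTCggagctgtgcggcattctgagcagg
Snhg12 (chr4:132308658-132308707, plus strand): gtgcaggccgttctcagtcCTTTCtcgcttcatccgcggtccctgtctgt
Snhg1 (chr19:8723467-8723516, plus strand): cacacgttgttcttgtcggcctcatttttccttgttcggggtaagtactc

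Of the 70 C/D box snoRNAs tested, 2 rose (Snord89 and Snord42b) and 2 fell (Snord73a and Snord4a) in Foxj3-ES, against 7.54% and 7.01% of all genes. In Zbtb18-ES 1 rose (Snord49b) and 1 fell (Snord4a), against 5.31% and 6.5% of all genes. The median log2 difference was 0.11 for Foxj3-ES, with 20 genes at an unadjusted p under 0.05, and 0.03 for Zbtb18-ES, with 8. For these counts too, no share of all genes at the unadjusted cut is given. The sign of neither median held. Without control replicate 2 they were -0.39 and -0.572, and without control replicate 1 they were 0.45 and 0.362. The Foxj3-ES median was -0.209 without Foxj3-ES replicate 1, and the Zbtb18-ES median -0.008 without Zbtb18-ES replicate 1. With the same sum over all genes they were -0.24 and -0.102, and over mRNA genes -0.083 and -0.011. Without control replicate 2 the calls in Foxj3-ES were 1 higher and 7 lower, in Zbtb18-ES 0 higher and 2 lower. The count of 4 in Foxj3-ES was also 2 without Foxj3-ES replicate 1 and 2 without control replicate 3. In Zbtb18-ES the count of 2 was 3 without Foxj3-ES replicate 1 or 2, 1 without Foxj3-ES replicate 3, Zbtb18-ES replicate 1 or 2 or control replicate 1, and 0 without Zbtb18-ES replicate 3. With the same sum over all genes the calls in Foxj3-ES were 1 higher and 6 lower.

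Snord73a, within the ribosomal protein gene Rps3a1, had the lowest adjusted p of the C/D box snoRNAs in Foxj3-ES. It was listed at 0 in all 3 Foxj3-ES libraries, against 92.4, 101 and 81.7 UQRPKM in Zbtb18-ES and 27.5, 14.4 and 88.7 in control ESCs. These values rest on about 13, 16 and 10 reads in Zbtb18-ES and 4, 2 and 14 reads in control ESCs, with none in Foxj3-ES. The step of 1 read was larger in the Foxj3-ES libraries than in the control libraries. The fall in Foxj3-ES was called (adjusted p = 0.000739) and held with each library left out (0.000572 to 0.00446) and under all 13 other settings. No fold is given because a group at 0 gives none. Its host moved the other way: Rps3a1 had 8034, 7075 and 5937 UQRPKM in Foxj3-ES against 2436, 3118 and 2830.4 in control ESCs and rose (log2 difference 1.32, adjusted p = 0.00168).

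Snord89 lies in the annotated gene Gm15832. It had 1219.9, 874 and 463 UQRPKM in Foxj3-ES cells, 401, 255 and 402 in Zbtb18-ES cells and 318, 343 and 257 in control ESCs, with each Foxj3-ES library above the other 6. It rose in Foxj3-ES (log2 difference 1.38 ± 0.32 SE, adjusted p = 0.0191), and in Zbtb18-ES its libraries overlapped the controls (log2 difference 0.18 ± 0.32 SE, adjusted p = 0.762). The rise was lost without Foxj3-ES replicate 1 (adjusted p = 0.0615) or 2 (0.0593) and without control replicate 3 (0.0672), and it held under all 13 other settings.

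Snord42b and Snord4a both lie in the ribosomal protein gene Rpl23a and moved in opposite directions in Foxj3-ES. Snord42b had 885, 693 and 820.2 UQRPKM in Foxj3-ES cells, 878, 389 and 556 in Zbtb18-ES cells and 339.8, 391 and 502 in control ESCs, with each Foxj3-ES library above the controls (log2 difference 0.97 ± 0.27 SE, adjusted p = 0.0362). Its call was lost without Foxj3-ES replicate 1 (adjusted p = 0.111), 2 (0.0592) or 3 (0.0873), Zbtb18-ES replicate 3 (0.0522) or control replicate 1 (0.116) or 2 (0.0782), and it held under 7 of 13 other settings. Snord4a had 76.2, 102 and 139.8 UQRPKM in Foxj3-ES cells, 124, 73.3 and 95.2 in Zbtb18-ES cells and 134, 349 and 333 in control ESCs. Control replicate 1 lay beside the lines, at an estimated 20 reads, while the other 2 controls had 50 and 54 and the 6 libraries of the lines 8 to 18. These estimates are all even numbers and may be too high. Snord4a fell in Foxj3-ES (log2 difference -1.27 ± 0.37 SE, adjusted p = 0.0455) and in Zbtb18-ES (log2 difference -1.38 ± 0.37 SE, adjusted p = 0.0388).

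The Snord4a calls depended on single libraries and on the settings. In Foxj3-ES the call was lost without Foxj3-ES replicate 1 (adjusted p = 0.143) or 2 (0.0999), any Zbtb18-ES library (0.0523, 0.0518 and 0.0639) or control replicate 2 (0.126) or 3 (0.144). In Zbtb18-ES it was lost without Foxj3-ES replicate 2 (0.0551), any Zbtb18-ES library (0.0571, 0.108 and 0.0997) or control replicate 2 (0.117) or 3 (0.123). Each held under 8 of 13 other settings, and with the correction for GC content and length the adjusted p was 0.248 in Foxj3-ES and 0.116 in Zbtb18-ES. Rpl23a itself was not called in either line (log2 differences 0.73 and 0.43).

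Snord49b, the neighbour of Snord49a in 2410006H16Rik, was the C/D box snoRNA that rose in Zbtb18-ES. It had 2444, 983 and 1553 UQRPKM in Foxj3-ES cells, 3895, 1859 and 3263 in Zbtb18-ES cells and 1216, 474 and 1286 in control ESCs. Each Zbtb18-ES library lay above each control library (log2 difference 1.66 ± 0.44 SE, adjusted p = 0.0367), and the Foxj3-ES libraries overlapped the controls (log2 difference 0.78 ± 0.44 SE, adjusted p = 0.269). The call was lost without Foxj3-ES replicate 3 (adjusted p = 0.0531), Zbtb18-ES replicate 1 (0.115) or 3 (0.108) or control replicate 1 (0.0535), 2 (0.0942) or 3 (0.0501), and it held under 10 of 13 other settings. The noncoding host 2410006H16Rik (log2 difference 0.16 in Zbtb18-ES), Snord49a (0.61) and Snord65 (0.42) in the same gene were not called.

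Of the 36 H/ACA box snoRNAs tested, 4 rose (Snora65, Snora3, Snora52 and Snora7a) and 2 fell (Snora31 and Snora17) in Foxj3-ES, against 7.54% and 7.01% of all genes. In Zbtb18-ES 2 rose (Snora65 and Snora28) and 1 fell (Snora78), against 5.31% and 6.5% of all genes. The median log2 difference was -0.29 for Foxj3-ES and -0.28 for Zbtb18-ES and stayed below 0 under each scaling and with each library left out. The Foxj3-ES median was close to that of all genes without Foxj3-ES replicate 2 (-0.063, against -0.026 for all genes) and without control replicate 1 (-0.043, against -0.034). Over all libraries left out, the medians ran from -0.376 to -0.043 in Foxj3-ES and from -0.495 to -0.185 in Zbtb18-ES, lowest in both without control replicate 2. At an unadjusted p under 0.05 there were 14 and 9 genes, again without a share of all genes to set beside them. The count in Foxj3-ES was 3 without Foxj3-ES replicate 1 or 3, and with the same sum over all genes 2 were called higher and 7 lower. In Zbtb18-ES the count of 3 was 0 without Zbtb18-ES replicate 1 or 3 and 1 without Foxj3-ES replicate 3 or control replicate 1 or 3.

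The 4 H/ACA box snoRNAs that rose in Foxj3-ES each lie in a ribosomal protein gene. So do Snora21, Snora33, Snora62, Snora64, Snora68, Snora69 and Snora70, which were not called in any comparison. Snora65, in Rpl12, had 4026, 3299 and 4161 UQRPKM in Foxj3-ES cells, 3867, 2185 and 2440.4 in Zbtb18-ES cells and 1711, 1451 and 1794 in control ESCs. All libraries of both lines lay above all controls, and it rose in Foxj3-ES (log2 difference 1.21 ± 0.21 SE, adjusted p = 0.0061) and in Zbtb18-ES (log2 difference 0.74 ± 0.21 SE, adjusted p = 0.0483). The Foxj3-ES call held with each library left out (adjusted p 0.00276 to 0.0267) and under all 13 other settings. The Zbtb18-ES call was lost without any library other than Zbtb18-ES replicate 2, at an adjusted p of 0.0641, 0.0595 and 0.0640 for Foxj3-ES replicates 1 to 3, 0.116 and 0.0798 for Zbtb18-ES replicates 1 and 3 and 0.0969, 0.123 and 0.0886 for control replicates 1 to 3. It held under 5 of 13 other settings.

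Snora3, in Rpl27a, had 567, 546 and 480.1 UQRPKM in Foxj3-ES cells, 289.9, 278 and 319 in Zbtb18-ES cells and 117, 298 and 165 in control ESCs. Each Foxj3-ES library lay above the other 6, and the rise over control (log2 difference 1.56 ± 0.27 SE, adjusted p = 0.00623) held with each library left out (adjusted p 0.00067 to 0.0270) and under all 13 other settings. In Zbtb18-ES it overlapped the controls, where replicate 2 was the high one (log2 difference 0.72 ± 0.27 SE, adjusted p = 0.119). Snora52, in Rplp2, had 179, 155 and 268 UQRPKM in Foxj3-ES cells, 166, 121 and 211 in Zbtb18-ES cells and 119, 54.8 and 83.6 in control ESCs. It rose in Foxj3-ES (log2 difference 1.25 ± 0.31 SE, adjusted p = 0.0257), a call that was lost without Foxj3-ES replicate 1 (adjusted p = 0.0606) or 3 (0.0802) or control replicate 2 (0.0626) or 3 (0.0671) and held under 10 of 13 other settings. Its Zbtb18-ES libraries also lay above the controls, without a call (log2 difference 0.98 ± 0.31 SE, adjusted p = 0.069).

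Snora7a, in Rpl32, had 1529.7, 544 and 784 UQRPKM in Foxj3-ES cells, 524, 599.6 and 809.6 in Zbtb18-ES cells and 467, 239 and 411 in control ESCs. The groups did not overlap in Foxj3-ES (log2 difference 1.27 ± 0.36 SE, adjusted p = 0.0421), with Foxj3-ES replicate 1 far above the rest. The call was lost without any library other than Foxj3-ES replicate 2, at an adjusted p of 0.118 and 0.0771 for Foxj3-ES replicates 1 and 3, 0.0532, 0.0580 and 0.0513 for Zbtb18-ES replicates 1 to 3 and 0.0555, 0.117 and 0.0790 for control replicates 1 to 3. It held under 7 of 13 other settings. All its bases lie in an annotated protein-coding exon, and Rpl32 reached 36509, 34415 and 37161 UQRPKM in Foxj3-ES against 14693, 18326 and 18319 in control ESCs.

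Snora31, in Tpt1 (the translationally controlled tumour protein gene), had the lowest adjusted p of the H/ACA box snoRNAs in Foxj3-ES. It had 47.6, 53.1 and 48.5 UQRPKM in Foxj3-ES cells, 86.3, 168 and 139 in Zbtb18-ES cells and 221, 175 and 250.2 in control ESCs. The 3 groups did not overlap, with Zbtb18-ES between the others, and the reads were 8, 10 and 10 in Foxj3-ES cells, 20, 44 and 28 in Zbtb18-ES cells and 53, 40 and 65 in control ESCs. It fell in Foxj3-ES (log2 difference -2.08 ± 0.24 SE, adjusted p = 0.00117), with each library left out (adjusted p 0.000833 to 0.00733) and under all 13 other settings, and was not called in Zbtb18-ES (log2 difference -0.75 ± 0.24 SE, adjusted p = 0.0715). Tpt1 rose in both lines (log2 difference 1.25, adjusted p = 0.0140 in Foxj3-ES and 1.16, adjusted p = 0.0228 in Zbtb18-ES).

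Snora17, in the RefSeq span of Snhg7, had 101, 139.8 and 111 UQRPKM in Foxj3-ES cells, 150.1, 155 and 101 in Zbtb18-ES cells and 184, 371 and 186 in control ESCs. Both lines lay below the controls, where replicate 2 was the high one. It fell in Foxj3-ES (log2 difference -0.999 ± 0.28 SE, adjusted p = 0.0412) and was not called in Zbtb18-ES (log2 difference -0.81 ± 0.28 SE, adjusted p = 0.0948). The call was lost without any library other than Zbtb18-ES replicate 3, at an adjusted p of 0.124, 0.0574 and 0.0968 for Foxj3-ES replicates 1 to 3, 0.0538 and 0.0509 for Zbtb18-ES replicates 1 and 2 and 0.0508, 0.0777 and 0.0543 for control replicates 1 to 3. It held under 8 of 13 other settings.

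Snora28, in the translation initiation factor gene Eif5, had 295, 302 and 312 UQRPKM in Foxj3-ES cells, 301, 329 and 337 in Zbtb18-ES cells and 229.8, 216 and 254 in control ESCs. Both lines lay above all controls, by a small step with little spread, and the rise was called in Zbtb18-ES (log2 difference 0.46 ± 0.12 SE, adjusted p = 0.0348) and not in Foxj3-ES (log2 difference 0.38 ± 0.12 SE, adjusted p = 0.063). The Zbtb18-ES call was lost without any library other than Foxj3-ES replicate 1, at an adjusted p of 0.0501 and 0.0502 for Foxj3-ES replicates 2 and 3, 0.0597, 0.0784 and 0.113 for Zbtb18-ES replicates 1 to 3 and 0.101, 0.0630 and 0.0581 for control replicates 1 to 3. It held under 5 of 13 other settings. Eif5 was lower in both lines without a call (log2 difference -0.45 in Zbtb18-ES, adjusted p = 0.0735).

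Snora78, in Snhg9, was listed at 0 in all 3 Zbtb18-ES libraries, at 0, 7.58 and 0 UQRPKM in Foxj3-ES and at 44.6, 12.5 and 5.49 in control ESCs. The control values rest on 15, 4 and 2 reads and the Foxj3-ES value on 2 reads. The fall in Zbtb18-ES was called (adjusted p = 0.0201) and was lost without Zbtb18-ES replicate 1 (0.0565), 2 (0.0502) or 3 (0.0596) or control replicate 1 (0.0642), and it held under 11 of 12 other settings. Snora15, in Cct6a (a chaperonin subunit gene), was listed at 0 in all 3 Foxj3-ES libraries, at 25.0, 7.37 and 38.3 UQRPKM in Zbtb18-ES and at 16.1, 0 and 44.6 in control ESCs, on at most 12 reads. It was not called in any comparison.

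**Figure D3:**
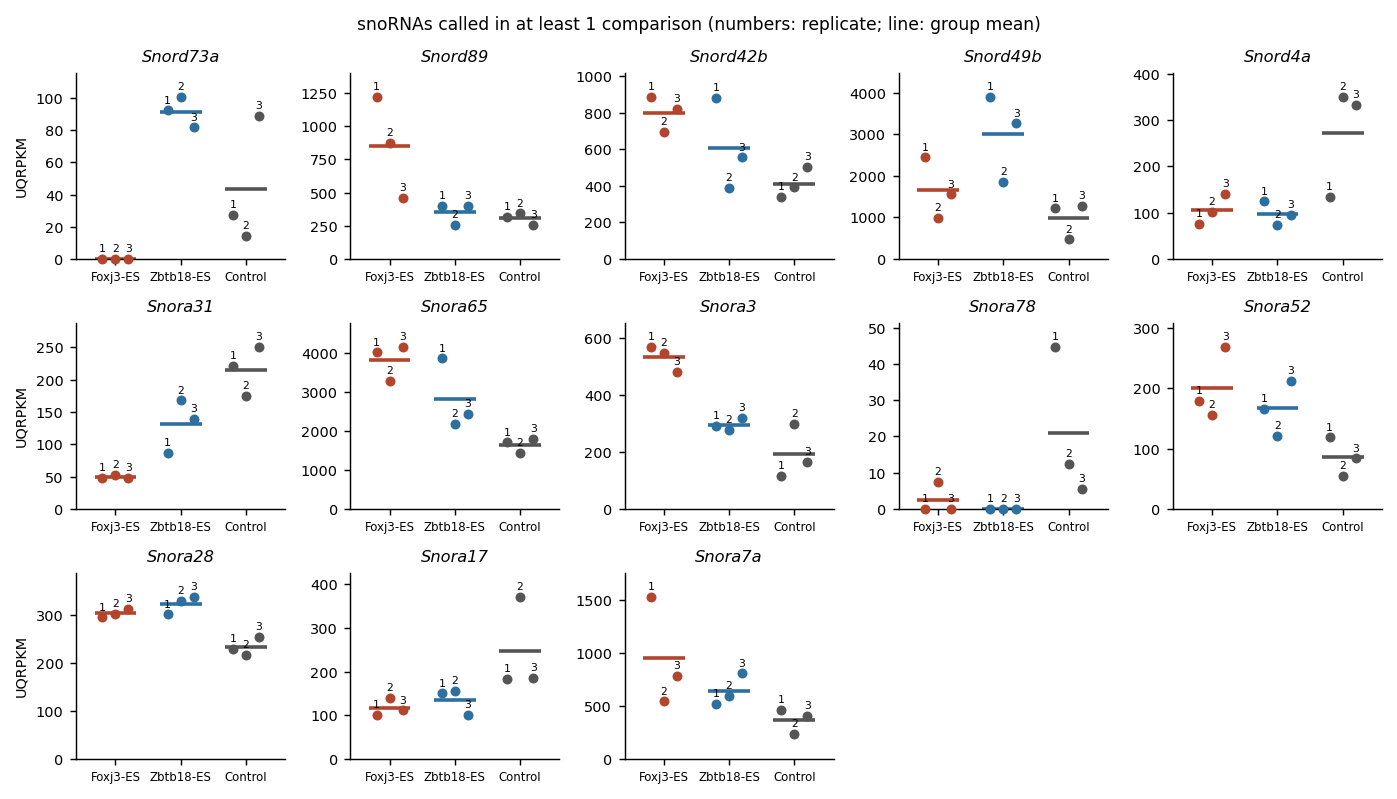
UQRPKM of the 13 snoRNAs called in at least 1 comparison in each of 9 libraries, C/D box snoRNAs first, each panel on its own axis from 0, with the replicate number at each point and a line at the group mean. Snord73a lies at 0 in all 3 Foxj3-ES libraries, Snora31 falls into 3 separate groups with Foxj3-ES lowest (47.6 to 53.1), and Snora3 is highest in Foxj3-ES (480.1 to 567).

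**Figure D4:**
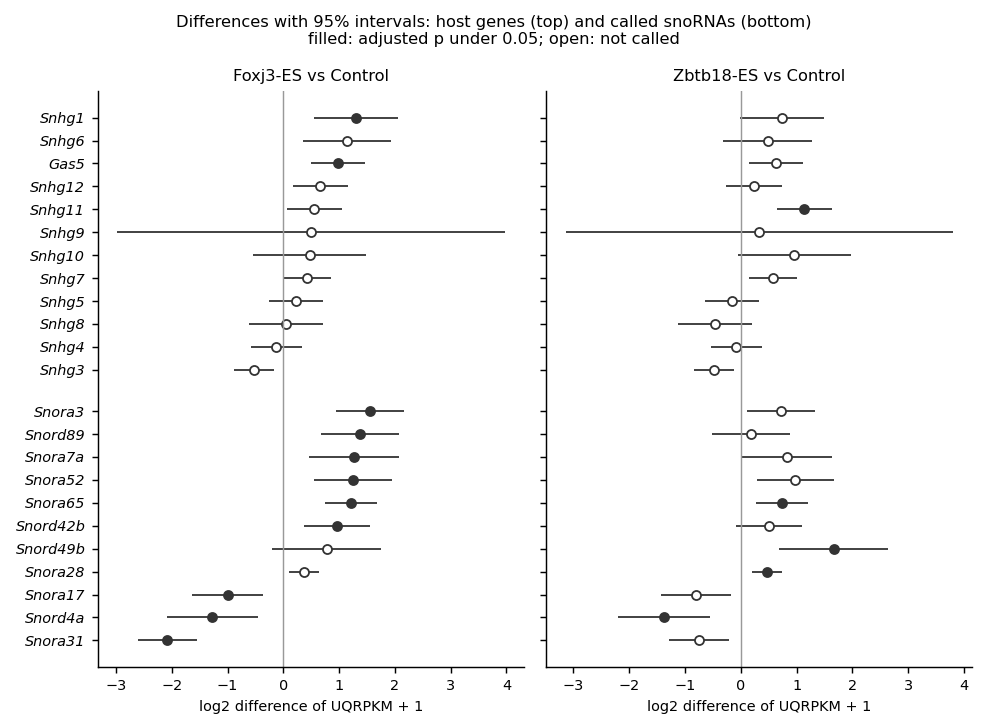
Log2 differences of UQRPKM + 1 with 95% intervals from limma for the 12 host genes (top) and the called snoRNAs that no group lists at 0 (bottom), in Foxj3-ES against control ESCs on the left and Zbtb18-ES against control ESCs on the right. Filled points are called at an adjusted p under 0.05, and the Foxj3-ES differences run from -2.08 (Snora31) to 1.56 (Snora3).

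Between the 2 lines few members differed. Over all genes 0.328% were called higher in Zbtb18-ES and 0.359% lower, each relative to Foxj3-ES, and among members 1 Snord gene (Snord73a) and 1 Snora gene (Snora31) were called higher and none lower. Snora31 had 86.3, 168 and 139 UQRPKM in Zbtb18-ES against 47.6, 53.1 and 48.5 in Foxj3-ES (log2 difference 1.33 ± 0.24 SE, adjusted p = 0.0414). That call was lost without any 1 Foxj3-ES library (adjusted p = 0.111, 0.104 and 0.0908), Zbtb18-ES replicate 2 (0.0970) or 3 (0.173) or control replicate 1 (0.0738) or 3 (0.0717), and it held under 8 of 13 other settings. Snord73a was above 0 in all 3 Zbtb18-ES libraries and in no Foxj3-ES library (adjusted p = 0.00153). No host gene was called between the lines by limma, and 1 (Snhg11) had an unadjusted p under 0.05. Without control replicate 2, which enters the estimate of the spread, 3 Snora genes were called between the lines (2 higher and 1 lower). Without Foxj3-ES replicate 3 or Zbtb18-ES replicate 1 or 2, 2 Snord genes were called (1 higher and 1 lower).

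A snoRNA cut from an intron comes from the transcript of its host, so their differences were set side by side. Hosts were assigned by position, as a gene body that holds the snoRNA on the same strand. For Snora17 and Snora43 (Snhg7) and Snora74a (Snhg4) it was a RefSeq span without a strand. Origin from 1 transcript was not tested. A host with a tested value was available for 97 of the 114 snoRNAs, in 68 genes, so some pairs share a host. The log2 differences of snoRNAs spread more (SD 1.35 for Foxj3-ES and 1.03 for Zbtb18-ES) than those of their hosts (0.58 and 0.48). Across pairs Pearson's r was 0.11 for Foxj3-ES and 0.10 for Zbtb18-ES, as a description over pairs that share libraries, and 55 and 58 of the 97 pairs had the same sign. For the 14 pairs with a Gas5 or Snhg host r was 0.408 and 0.171, with 11 pairs of the same sign in each line. For the 83 other pairs r was 0.079 and 0.10, with 44 and 47 of the same sign. Many snoRNA values rest on few reads, and the part of this in the spread and in r was not tested. Both partners were called in 5 pairs in Foxj3-ES. Of these, 3 moved together (Snora3 with Rpl27a, Snora52 with Rplp2 and Snora7a with Rpl32) and 2 moved apart (Snord73a with Rps3a1 and Snora31 with Tpt1). All bases of Snora3, Snora52 and Snora7a also lie in an annotated exon of another gene. Reads from these snoRNAs and from that exon cannot be told apart. No bases of Snord73a or Snora31 lie in such an exon. In Zbtb18-ES no pair had both partners called by limma.

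The 3 snoRNAs tested that lie within Gas5, Snhg1 and Snhg6 were not called in either line. Snord47, in Gas5, had 1149, 604 and 577 UQRPKM in Foxj3-ES cells, 914, 729.8 and 504 in Zbtb18-ES cells and 1258, 286 and 902 in control ESCs, which overlapped between all groups (log2 difference 0.10 ± 0.49 SE, adjusted p = 0.917) where Gas5 rose. Snord22 (U22), which acts in the processing of ribosomal RNA in frogs, lies in Snhg1. It had 3175, 2079 and 2484 UQRPKM in Foxj3-ES cells, 2109, 1869 and 1618 in Zbtb18-ES cells and 2225, 1351 and 1368 in control ESCs and was not called (log2 difference 0.66 ± 0.22 SE, adjusted p = 0.075). Snord87, in Snhg6, had 541, 370.0 and 829.9 UQRPKM in Foxj3-ES cells, 744, 1219 and 653 in Zbtb18-ES cells and 619, 159 and 606 in control ESCs, with the Zbtb18-ES libraries above the controls and no call (log2 difference 1.10 ± 0.50 SE, adjusted p = 0.18).

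The 4 snoRNAs of Snhg12 had positive differences in Foxj3-ES and none was called: 1.03 for Snord99, 0.82 for Snora61, 0.85 for Snora44 and 0.32 for Snora16a, beside 0.66 for Snhg12 itself. Snora73a, in Snhg3, had 462, 316 and 464 UQRPKM in Foxj3-ES cells, 594, 369 and 352 in Zbtb18-ES cells and 788, 415 and 629 in control ESCs. Snora73b had 436, 395 and 456 UQRPKM in Foxj3-ES cells, 764, 444 and 434 in Zbtb18-ES cells and 1054, 477 and 957 in control ESCs, and its Foxj3-ES libraries lay below the controls without a call (log2 difference -0.87 ± 0.30 SE, adjusted p = 0.0806). The differences of both copies had the sign of Snhg3, with the limit that the copies are nearly identical. Snora43, in the span of Snhg7, Snora24, in Snhg8, and Snora74a, in the span of Snhg4, were not called in either line (adjusted p of 0.355 or more).

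**Figure D5:**
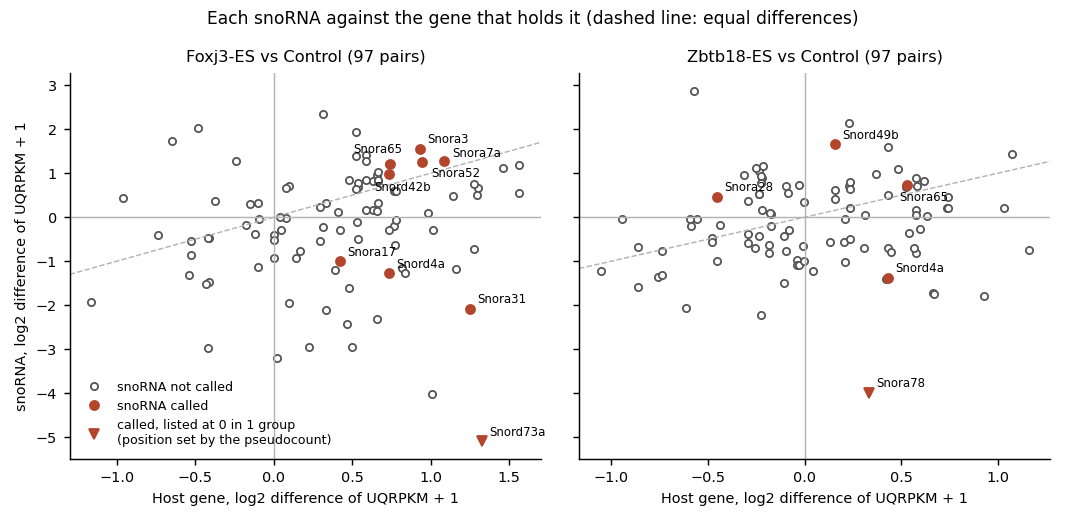
Log2 difference of each snoRNA (vertical) against that of the gene that holds it (horizontal) for 97 pairs, in Foxj3-ES against control ESCs on the left and Zbtb18-ES against control ESCs on the right, with called snoRNAs filled and named and a dashed line at equal differences. In Foxj3-ES Snora3, Snora52 and Snora7a lie near the line, while Snora31 and Snord73a lie far below it with hosts that rose. All bases of Snora3, Snora52 and Snora7a lie in annotated exons, whose reads cannot be told apart from theirs. The triangles mark called snoRNAs listed at 0 in a whole group, whose height depends on the pseudocount.

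Of the protein-coding hosts of the members, 55 were tested, and 19 rose and 4 fell in Foxj3-ES, against 7.54% and 7.01% of all genes, with a median log2 difference of 0.39. In Zbtb18-ES 5 rose and 7 fell, against 5.31% and 6.5% of all genes, with a median of -0.004. Of the 23 ribosomal protein genes among the 55, 10 were not called in Foxj3-ES and 13 rose: Rpl3, Rpl4, Rpl10, Rpl13, Rpl17, Rpl23, Rpl27a, Rpl32, Rpl37, Rplp2, Rps3a1, Rps12 and Rps13, with log2 differences from 0.73 (Rpl10) to 1.56 (Rps12). The translation factor genes Eif3a (0.81), Eif4a2 (0.78) and Eef1b2 (1.01), the nucleolar protein gene Ncl (0.48), Tpt1 (1.25) and Ccar1 (1.005) rose as well. Among those that fell were Srcap (-1.16), a chromatin remodeller, the splicing factor gene Sf3b3 (-0.48) and Tbrg4 (-0.54). In Zbtb18-ES Rpl23 (1.03), Rpl27a (0.58), Rps3a1 (1.07), Eif4a2 (0.74) and Tpt1 (1.16) rose, and those that fell included Srcap (-1.06), Sf3b3 (-0.61), Tbrg4 (-0.76), Kansl2 (-0.74), Ipo7 (-0.59) and 2410002F23Rik (-0.86). Rpl32 and Rpl4 were the most abundant of these hosts, and Rpl4 averaged 44403 UQRPKM in Foxj3-ES, 35242 in Zbtb18-ES and 25969 in control ESCs. Between the lines Rpl13 and Rpl37 fell in Zbtb18-ES relative to Foxj3-ES. Both lines were set against the same control libraries, so their differences are not independent. The calls of these protein-coding hosts, and of the gene lists below, were not checked under the other settings or with a library left out.

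The genes of the proteins that bind snoRNAs were read from short lists, whose calls stand beside 7.54% of all genes called higher and 7.01% called lower in Foxj3-ES, with 5.31% and 6.5% for Zbtb18-ES. None of the 4 C/D core protein genes was called by limma in either line, with 2 and 1 at an unadjusted p under 0.05. Fbl, the methyltransferase fibrillarin, averaged 1320 UQRPKM in Foxj3-ES, 817 in Zbtb18-ES and 881 in control ESCs, and Nop56 and Nop58, the scaffold proteins, were also uncalled. Of the 4 H/ACA core protein genes, Nop10 rose in Foxj3-ES (4551 UQRPKM, against 2849 in control ESCs, log2 difference 0.68, adjusted p = 0.0101), and none was called in Zbtb18-ES, where 1 had an unadjusted p under 0.05. Dkc1, the pseudouridine synthase, was uncalled in Foxj3-ES (log2 difference 0.77, adjusted p = 0.0550).

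Of 13 genes for the assembly and export of snoRNPs, Nufip1, an assembly platform protein, rose in both lines (log2 difference 0.48, adjusted p = 0.0317 in Foxj3-ES and 0.44, adjusted p = 0.0478 in Zbtb18-ES). Ruvbl2, a helicase-like ATPase of the same pathway, fell in Zbtb18-ES (-0.61, adjusted p = 0.0446). Of 10 nonsense-mediated decay factors, Upf1, the central helicase, fell in Foxj3-ES (-0.74, adjusted p = 0.0497) and in Zbtb18-ES (-1.07, adjusted p = 0.0152). Upf3b rose in Foxj3-ES (1.01, adjusted p = 0.0173), and Smg9 fell in Zbtb18-ES (-0.77, adjusted p = 0.0418).

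Of 20 factors for the transcription and processing of ribosomal RNA, 5 rose and 3 fell in Foxj3-ES, against 7.54% and 7.01% of all genes, and none rose and 2 fell in Zbtb18-ES, against 5.31% and 6.5%. Those that rose were Npm1, Ncl, Nop14, Imp3 and Mphosph10, which act in the nucleolus on the precursor RNA, with log2 differences of 0.48 to 0.88. Those that fell were Taf1c (-1.18), Polr1b (-0.76) and Rrn3 (-0.57), parts of the RNA polymerase I machinery, and Taf1c (-1.12) and Polr1b (-0.69) also fell in Zbtb18-ES. Among 30 other small structured RNAs tested, such as Rnu3a, Rn7sk, Rmrp and Terc, limma called none in either line, with 4 for Foxj3-ES and 3 for Zbtb18-ES at an unadjusted p under 0.05. The most abundant, Rnu3a (U3, which acts in the processing of ribosomal RNA), averaged 1748 UQRPKM in Foxj3-ES, 1692 in Zbtb18-ES and 996 in control ESCs and was not called (adjusted p = 0.136 and 0.159). The median log2 difference of these RNAs was 0.33 for Foxj3-ES and 0.47 for Zbtb18-ES. In the same order it was 0.195 and -0.197 for the C/D core protein genes, 0.518 and 0.064 for the H/ACA core protein genes, -0.018 and -0.164 for the assembly and export genes, -0.226 and -0.378 for the decay factors and -0.044 and -0.31 for the ribosomal RNA factors, beside -0.035 and -0.023 for all genes.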

How the data were processed

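Total RNA of 9 undifferentiated J1 ESC libraries, 3 per group, was extracted with Trizol and sequenced on an Ion Proton instrument. The paper writes of total RNA in its methods and of total mRNAs in its results. It names no step that selected RNA by type or size. Whether the snoRNA values come from mature snoRNAs or from longer transcripts that hold them is therefore unknown. The authors deposited 1 table of UQRPKM values, that is RPKM (reads per kilobase and library depth) after upper-quartile scaling of every library, with 1 column per library. The submitters' processing notes name DESeq and the mm10 build, and for the aligner, the annotation and the counting step, nothing is given in the sources used here, so how reads shared by a snoRNA and its host were assigned is unknown. RPKM values are not counts, so no count test was used.

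Genes that reached a UQRPKM of 1 in 3 or more libraries were fitted together as log2(UQRPKM + 1) with limma 3.58.1 (R 4.3.3), with a mean-variance trend, 6 residual degrees of freedom and Benjamini-Hochberg adjustment over the 22268 genes tested. The script was tested on simulated data. The members and the gene lists were chosen with earlier results of these data known. All 12 host genes, called snoRNAs, the 3 most abundant of each class, those at 0 in 1 group and above 0 throughout another, snoRNAs within the 12 host genes, and list genes that were called or among the 2 most abundant were to be named, and the others were summarised. Not every gene that this rule names is reported here. Reads were estimated from UQRPKM, RefSeq length and the step of each library, and they describe counting depth and entered no test. Alternatives covered the pseudocount (0.1 and 5), filters (none, and a minimum of 10), 3 scalings, the groups in the fit, the trend, a replicate block, GC content and length, a fold change of at least 2, and each library left out. Single genes were followed through them for the members alone. Sequences and hosts came from GENCODE M21 on GRCm38, and gene spans and start windows from RefSeq (GRCm38.p6). Python 3.11.15, numpy 2.4.6, pandas 2.3.3 and matplotlib 3.10.9 were used.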

Additional observations from a re-analysis of the deposited data

Results flagged for a closer look

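Snord73a and Snora31 differed between the lines by a test of the difference itself. Snord73a was above 0 in all 3 Zbtb18-ES libraries and listed at 0 in all 3 Foxj3-ES libraries, and its fitted difference of 6.53 on the scale of log2(UQRPKM + 1) depends on the pseudocount and is no bound on the fold (limma, adjusted p = 0.00153). Snora31 was higher in Zbtb18-ES than in Foxj3-ES by 1.33 on the log2 scale (limma, adjusted p = 0.0414).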

How the results depend on the processing

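The calls of Snord73a, Snora31, Snora65 and Snora3 in Foxj3-ES, of Snhg11 in Zbtb18-ES and of Snord73a between the lines held with each of the 9 libraries left out and under all 13 other settings. With each library left out in turn, the calls in Foxj3-ES ranged from 2 to 8 for Snord, 3 to 7 for Snora and 0 to 4 for host genes, those in Zbtb18-ES from 0 to 3 for Snord, 0 to 3 for Snora and 1 to 2 for host genes, and those between the lines from 1 to 2 for Snord and 0 to 3 for Snora. In Foxj3-ES the 4 Snord calls became 2 with no filter or no trend, 7 with the same sum over all genes and 11 with a correction for GC content and length. The 6 Snora calls became 3 with no trend, and the 2 host calls became 4 with the stricter filter and 1 with no filter, no trend, the same sum over all genes, quantile normalization or a fold of at least 2. In Zbtb18-ES the 2 Snord calls became 0 with no filter or no trend and 1 with quantile normalization. The 3 Snora calls became 1 with no trend, the same sum over mRNA genes or a fold of at least 2, and the 1 host call became 2 with the same sum over all genes, quantile normalization or the GC and length correction. Between the lines the 1 Snora call became 0 with no filter, no trend, quantile normalization or only the compared groups in the fit. Causes were not tested.

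Over all genes tested, deviations of same-numbered libraries from their group means correlated at -0.052 to 0.082, which shows no pairing at that level. That correlation cannot decide on pairing for the members alone, which was not tested. Replicate 2 was most often the lowest library for the members in each group. With the replicate block the calls for Snord, Snora and host genes were 9, 9 and 4 in Foxj3-ES. They were 5, 5 and 2 in Zbtb18-ES, then 2, 0 and 0 between the lines, and with the block and the GC and length correction together 11, 9 and 4, then 4, 3 and 2, then 2, 2 and 0. The host genes that the block alone added were Snhg12 (adjusted p = 0.0168) and Snhg6 (0.0280) in Foxj3-ES and Gas5 (0.0386) in Zbtb18-ES.

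Of the named genes, 6 uncalled host genes changed sign. In Foxj3-ES the log2 difference was -0.017 for Snhg10, -0.0055 for Snhg5 and -0.34 for Snhg8 with the GC and length correction, with or without the block, and -0.12 for Snhg5 and -0.31 for Snhg8 with the same sum over all genes. It was -0.15 for Snhg8 with the same sum over mRNA genes. In Zbtb18-ES that of Snhg12 was -0.0018 with the correction, with or without the block. With a library left out, differences in Foxj3-ES ran from -0.010 to 0.86 for Snhg10, -0.28 to 0.032 for Snhg4, -0.082 to 0.15 for Snhg8 and -0.74 to 1.98 for Snhg9, and in Zbtb18-ES from -0.22 to 0.11 for Snhg4, -0.43 to 0.050 for Snhg5 and -0.90 to 1.73 for Snhg9. Over the settings, the 20 calls were kept in 296 values and lost in 143, and the uncalled host gene differences passed the threshold in 19 and stayed uncalled with the same sign in 415. Depth limits the snoRNAs, whose median value rests on an estimated 20 reads for Snord and 25 for Snora, which may be too high.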
